A study of Mus musculus with 5 samples.

Results

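Expression of 9 germ cell genes of piRNA production and transposon defence was measured in laser-captured intervillus cells of newborn mice that lacked the DNA methyltransferase Dnmt1 in the gut epithelium. The genes were picked by symbol (Piwil2, Mov10l1, Tdrd1, Asz1, Mael, Ddx4, Dazl, Tex19.1 and Tex19.2), and all 9 were found among the 22869 gene symbols of the count table. Where the table lists several transcripts of a gene, the transcript with the highest mean count was used. The mutant libraries, numbered 4 and 6, came from mice with the genotype Dnmt1 L/L; VillinCre, in which a Cre recombinase driven by the villin promoter acts in the gut epithelium. The control libraries, numbered 1, 2 and 3, came from littermates with the genotype Dnmt1 L/+. All were taken at postnatal day 0 from the intervillus areas of the proximal jejunum, the proliferating epithelium between the villi. Mutant areas were captured where Ki67, a protein of dividing cells, was not stained, and control areas where it was, so genotype and this choice of areas cannot be told apart. Which exons of Dnmt1 are floxed is not stated in the labels.

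PIWI-interacting RNAs (piRNAs) are small RNAs that guide PIWI proteins to the transcripts of mobile elements, which are then cut or silenced. In mice this system works in germ cells, where the proteins gather in granules next to mitochondria, and loss of its parts in the male germline releases retrotransposons and stops sperm formation. The promoters of many such genes carry DNA methylation in somatic tissues, and Dnmt1 copies that methylation to the new strand after each DNA replication.

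The 9 genes fell into 3 patterns. Tex19.1, Tex19.2, Asz1, Dazl and Mov10l1 had almost no reads in controls and were higher in both mutants. Piwil2 and Tdrd1, the PIWI protein of the set and its Tudor scaffold, already had reads in all controls and did not rise. Mael and Ddx4 stayed at a few reads in every library.

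The promoters of the genes that rose are shown first, because their CpG sites, the bases at which mouse DNA is methylated, are what Dnmt1 acts on. The sequences are RefSeq windows of 300 bases on the build GRCm38.p6, from 250 bases before to 50 bases after the annotated start, in the direction of the gene, with every CpG in capitals. Of the 9 genes, 8 had a window in the RefSeq table.
Tex19.1: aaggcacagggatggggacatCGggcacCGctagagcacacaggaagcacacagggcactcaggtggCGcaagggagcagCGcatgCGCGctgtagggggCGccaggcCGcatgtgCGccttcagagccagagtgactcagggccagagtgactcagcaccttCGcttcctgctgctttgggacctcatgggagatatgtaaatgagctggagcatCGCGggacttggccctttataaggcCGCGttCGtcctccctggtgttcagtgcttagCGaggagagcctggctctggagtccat
Tex19.2: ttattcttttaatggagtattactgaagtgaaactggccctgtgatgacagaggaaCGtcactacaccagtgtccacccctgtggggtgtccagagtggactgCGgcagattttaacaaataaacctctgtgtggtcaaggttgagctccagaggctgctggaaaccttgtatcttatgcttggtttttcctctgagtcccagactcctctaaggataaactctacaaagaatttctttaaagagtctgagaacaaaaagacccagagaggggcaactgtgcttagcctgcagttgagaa
Asz1: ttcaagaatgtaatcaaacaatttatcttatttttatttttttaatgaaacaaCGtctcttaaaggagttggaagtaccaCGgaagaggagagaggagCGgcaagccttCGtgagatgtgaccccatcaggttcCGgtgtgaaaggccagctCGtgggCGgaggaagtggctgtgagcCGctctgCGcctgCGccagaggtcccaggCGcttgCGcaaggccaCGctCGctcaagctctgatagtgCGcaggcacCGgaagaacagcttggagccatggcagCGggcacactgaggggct
Dazl: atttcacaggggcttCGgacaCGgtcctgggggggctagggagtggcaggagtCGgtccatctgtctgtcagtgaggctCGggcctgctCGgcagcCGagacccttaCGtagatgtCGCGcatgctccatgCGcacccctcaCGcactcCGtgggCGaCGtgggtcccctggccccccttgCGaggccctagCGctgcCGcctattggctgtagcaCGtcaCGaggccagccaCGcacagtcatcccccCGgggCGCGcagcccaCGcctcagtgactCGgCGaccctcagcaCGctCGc
Mov10l1: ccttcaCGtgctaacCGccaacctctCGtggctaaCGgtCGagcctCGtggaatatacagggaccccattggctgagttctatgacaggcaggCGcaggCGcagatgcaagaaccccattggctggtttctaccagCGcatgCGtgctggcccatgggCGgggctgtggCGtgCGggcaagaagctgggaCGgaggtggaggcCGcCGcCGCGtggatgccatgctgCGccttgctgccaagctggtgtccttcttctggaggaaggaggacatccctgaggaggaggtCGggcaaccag
These windows lie at chr11:121145893-121146192 on the plus strand (Tex19.1), chr11:121118628-121118927 on the minus strand (Tex19.2), chr6:18109012-18109311 on the minus strand (Asz1), chr17:50293571-50293870 on the minus strand (Dazl) and chr15:88982744-88983043 on the plus strand (Mov10l1). The windows of Mael and Ddx4 are set beside them, as promoters of genes that did not rise.
Mael: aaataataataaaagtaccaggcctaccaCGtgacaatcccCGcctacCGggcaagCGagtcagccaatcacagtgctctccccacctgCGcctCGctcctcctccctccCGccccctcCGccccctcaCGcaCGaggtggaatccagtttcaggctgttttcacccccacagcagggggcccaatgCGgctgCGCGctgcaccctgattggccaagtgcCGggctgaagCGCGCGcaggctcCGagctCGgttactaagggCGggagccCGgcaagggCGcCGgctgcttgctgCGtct
Ddx4: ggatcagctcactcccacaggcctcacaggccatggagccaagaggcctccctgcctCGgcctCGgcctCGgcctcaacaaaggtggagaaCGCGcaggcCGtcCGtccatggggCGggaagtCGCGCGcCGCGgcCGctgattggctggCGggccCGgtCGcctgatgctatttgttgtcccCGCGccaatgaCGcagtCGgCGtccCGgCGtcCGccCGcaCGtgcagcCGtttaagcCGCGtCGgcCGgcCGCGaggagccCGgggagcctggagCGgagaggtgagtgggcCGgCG
They lie at chr1:166238695-166238994 on the minus strand (Mael) and chr13:112652261-112652560 on the minus strand (Ddx4).

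The genes that rose did not share a CpG density. Dazl had 28 CpG, Mov10l1 20, Asz1 17 and Tex19.1 16 in the window, against a median of 7 over the 32851 promoters of the table and an upper quartile of 20. Tex19.2 had 2 CpG, and only 14.1% of promoters held fewer. Of the genes that stayed near 0, Ddx4 had 38 CpG and Mael had 24. Tdrd1, which had reads in all controls, has 3 annotated starts with 20, 25 and 3 CpG. No window was matched for Piwil2. Methylation itself was not measured, and the start site used in these cells is not known from the tables.

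**Figure D1:**
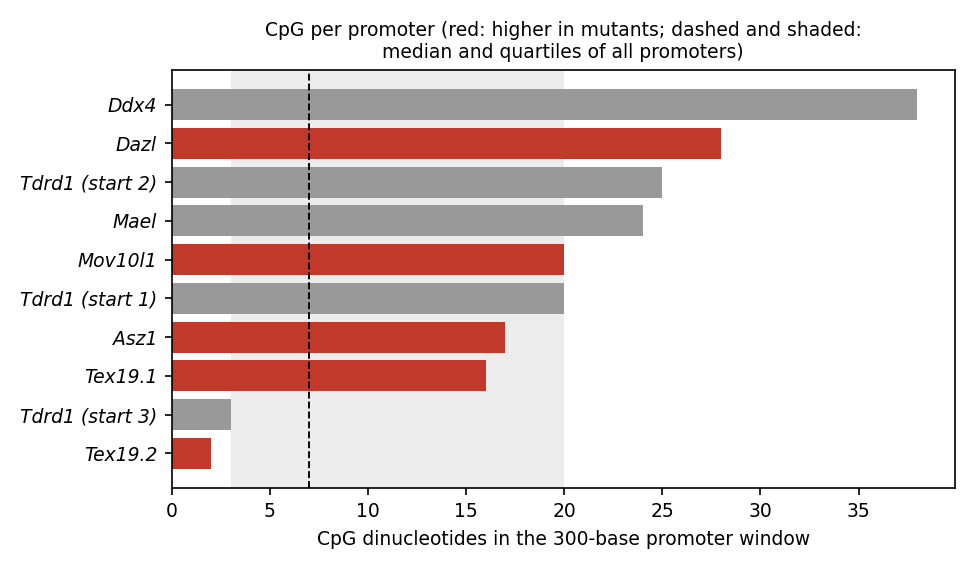
Horizontal bars give the number of CpG in each 300-base promoter window, in red for genes higher in mutants; the dashed line is the median of all promoters (7) and the shaded band their quartiles (3 to 20). Red bars range from 2 CpG in Tex19.2 to 28 in Dazl, and the longest bar, of Ddx4 (38), belongs to a gene that was not higher.

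A pair of short motifs was searched in the same windows. The E-box CACGTG, which reads the same on both strands, was present in windows of 4 of the 8 genes (Mov10l1, Tdrd1, Mael and Ddx4) and in 7.2% of all promoters. The motif GCGGGA, counted on both strands and of a kind bound by E2F proteins, was present in Tex19.1, Mael and Ddx4 and in 20.0% of all promoters. A match describes the letters of the window and not binding.

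In these libraries the targeted gene Dnmt1 was 39.1 ± 1.93 CPM in mutants (CPM, read counts scaled to library size; SD, n = 2) and 115 ± 17.8 CPM in controls (SD, n = 3), with an edgeR adjusted p of 3.74e-05. Mki67, the gene of Ki67, was lower but still at 508 ± 3.04 CPM in mutants, against 907 ± 125 CPM in controls (edgeR adjusted p = 0.00284). Counted with 1 row per gene, the mutants held 8730268 and 10260760 reads and the controls 10530200 to 13356901. The Y-linked genes Ddx3y, Eif2s3y, Kdm5d and Uty summed to 4 and 3 counts in mutants but to 2710 to 3160 in controls. Every difference between genotypes is therefore also one between libraries without and with Y-linked transcripts. All 9 germ cell genes are autosomal, but for them too these differences cannot be told apart. The 7 epithelial markers summed to 3364 and 3305 CPM in mutants and 3236 to 3440 CPM in controls. Of 8 mesenchyme markers 6 rose, with summed levels of 1738 and 1623 CPM in mutants and 1045 to 1138 CPM in controls (0 called without mutant 4 and 3 without control 1, by edgeR), and the part of this in the results below was not tested. Of all genes tested, 6.11% were called higher. In bulk libraries more cells with a transcript and more transcript per cell cannot be told apart. The labels do not tie each library to its own animal, so the p-values reflect the spread among libraries, which may be technical.

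Read over all 9 genes, 5 were called higher in mutants and 0 lower (edgeR quasi-likelihood test, Benjamini-Hochberg adjusted p under 0.05). At an unadjusted p under 0.05, 1 gene was lower, and DESeq2 and limma-voom also called 5 higher and 0 lower. Among the 14572 genes tested, 6.11% were called higher and 4.17% lower. The default filter on low counts kept 7 of the 9 and left out Mael and Ddx4. The 5 that rose passed it only through the mutants and so had to differ once they passed: of 103 tested genes with at most 9 counts over all controls, a limit chosen after the values were seen, 97 were called higher. Without the filter all 9 entered the test, 5 were called higher against 6.53% of 20379 genes, and 1, Piwil2, was called lower. The summed level of the 9 genes was 120 and 96.4 CPM in mutants and 14.5, 26.5 and 21.1 CPM in controls 1, 2 and 3, where nearly all of these reads were of Piwil2 and Tdrd1.

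**Figure D2:**
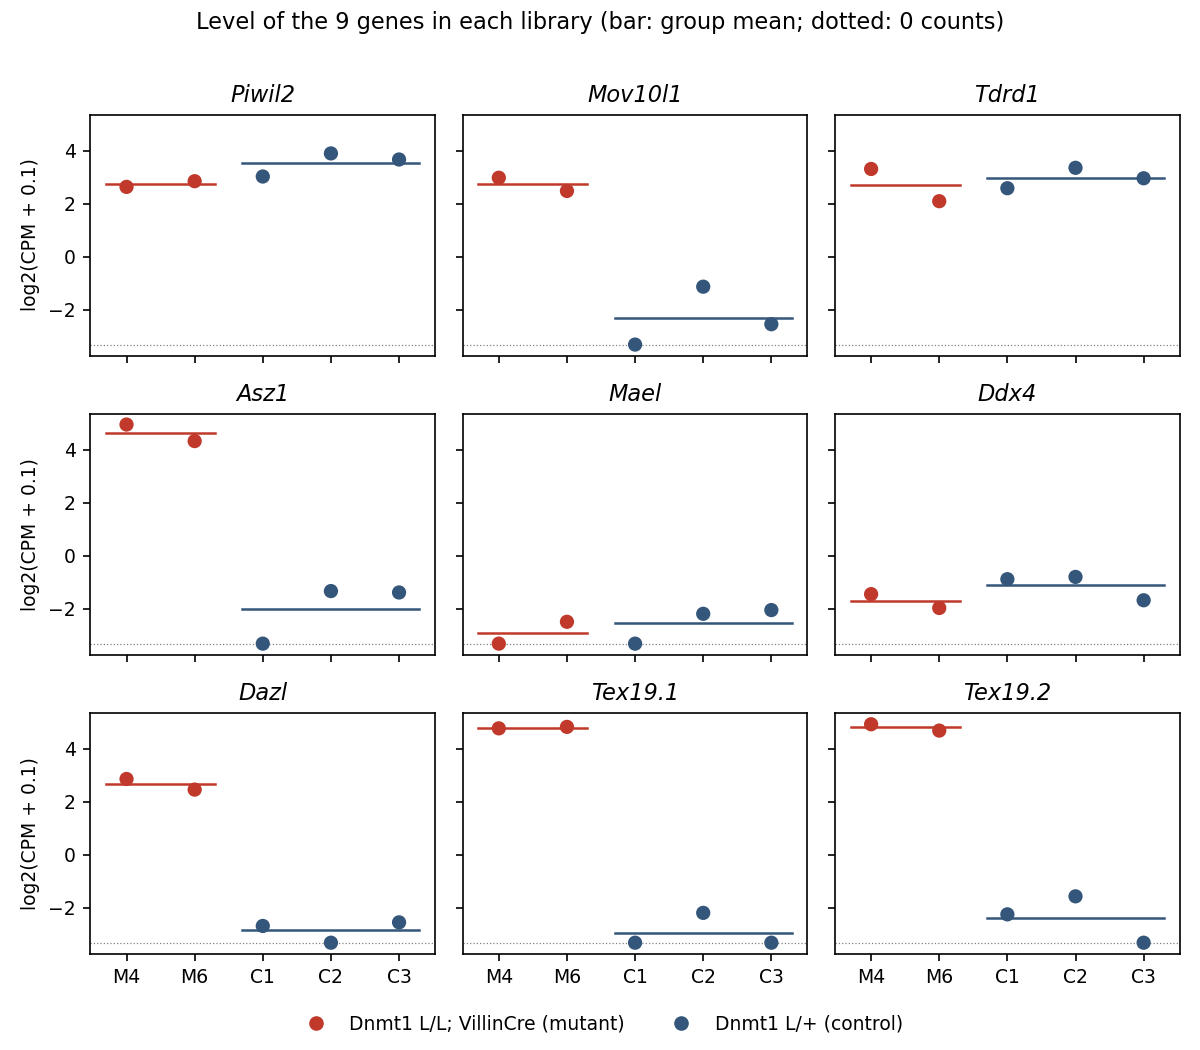
Each panel is 1 gene, with log2(CPM + 0.1) on the vertical axis and mutants 4 and 6 (red) left of controls 1, 2 and 3 (blue) on the horizontal axis; bars are group means and the dotted line marks 0 counts. Mov10l1, Asz1, Dazl, Tex19.1 and Tex19.2 have both mutants far above all controls, and the groups overlap in Tdrd1, Mael and Ddx4.

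PIWI proteins come first in the pathway's order of roles. Piwil2 (transcript NM_021308) encodes MILI, the PIWI protein that loads piRNAs and cuts transposon transcripts in mouse germ cells. Its counts were 69 and 92 in mutants 4 and 6 and 146, 250 and 179 in controls 1, 2 and 3. In level, both mutants lay below every control, at 6.10 and 7.10 CPM in mutants and 8.04, 14.8 and 12.6 CPM in controls, as did 21.8% of all genes tested. The log2 fold change was -0.83 ± 0.29 (SE) and did not pass the test over all genes (edgeR adjusted p = 0.0832). It passed with no filter on low counts (-0.84, edgeR adjusted p = 0.0226), where 4.59% of genes were called lower, and without control 1 (-1.05, edgeR adjusted p = 0.0476). The other PIWI genes were nearly silent: Piwil1 had a single read, in mutant 4, and Piwil4 had 6 and 7 counts in mutants and 6, 2 and 2 in controls.

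Mov10l1 encodes the RNA helicase that binds piRNA precursors and feeds them into processing. It had 88 and 71 counts in mutants and 0, 6 and 1 in controls 1, 2 and 3. The mean level was 6.63 ± 1.63 CPM in mutants and 0.142 ± 0.188 CPM in controls, with both mutants above every control. Its log2 fold change was 5.46 ± 0.68 (SE; edgeR adjusted p = 0.000195). Control 2 held 6 of the 7 control counts, and without it the log2 fold change was 7.39 (edgeR adjusted p = 0.00015), against 4.84 without control 1. Mov10, the broadly expressed relative of this helicase, was at 146 ± 2.97 CPM in mutants and 160 ± 22.3 CPM in controls (edgeR adjusted p = 0.607).

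Among the scaffold proteins of the granules, Asz1 rose and Tdrd1 was not called. Asz1, also called Gasz, is an ankyrin repeat protein held at the outer mitochondrial membrane, where it stabilises the granule. It had 349 and 259 counts in mutants and 0, 5 and 4 in controls, which is 30.9 and 20.0 CPM in mutants against at most 0.296 CPM in a control. The groups did not overlap, and the log2 fold change was 7.05 ± 0.47 (SE; edgeR adjusted p = 5.36e-07). Leaving out any 1 library kept it between 6.41 (without control 1) and 7.59 (without control 2).

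Tdrd1 encodes a Tudor domain protein that binds the methylated arginines of Piwil2. Its counts were 111 and 54 in mutants and 107, 171 and 109 in controls. The groups overlapped, with mutant 4 at 9.82 CPM and mutant 6 at 4.17 CPM, on either side of control 1 at 5.89 CPM. The log2 fold change was -0.18 ± 0.36 (SE; edgeR adjusted p = 0.793), and its sign rested on single libraries: it was 0.31 without mutant 6 and 0.05 without control 2. The other 3 transcript rows of Tdrd1 hold nearly the same reads and gave -0.17.

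Mael and Ddx4 were near 0 throughout. Mael encodes a granule protein with an HMG box that is needed for transposon silencing in mouse testis, and it had 0 and 1 counts in mutants and 0, 2 and 2 in controls. By counts its level in mutants was 0.508 times that in controls (exact binomial 95% interval 0.0103 to 5.13), so no difference was detectable at this depth. Ddx4, the mouse form of Vasa, is an RNA helicase of the granules and a standard marker of germ cells. It had 3 and 2 counts in mutants and 8, 8 and 3 in controls, at most 0.473 CPM in any library. In CPM the groups overlapped, and with no filter on low counts its log2 fold change was -0.84 ± 1.28 (SE; edgeR adjusted p = 0.76). Such intervals cover counting error only, since amplified reads are not independent molecules.

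Dazl, an RNA-binding protein that controls translation in germ cells, rose although Ddx4 did not pass the filter. It had 81 and 70 counts in mutants and 1, 0 and 1 in controls. Its level was 6.28 ± 1.25 CPM in mutants and 0.0418 ± 0.037 CPM in controls, 153 times as high by counts (exact binomial 95% interval 41.7 to 1277; edgeR adjusted p = 1.73e-05). Both mutants lay above all controls.

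Both Tex19 genes rose. Tex19.1 is active in germ cells and placenta and restrains LINE-1 retrotransposons in mice, and Tex19.2 is its neighbouring copy. Tex19.1 had 308 and 367 counts in mutants and 0, 2 and 0 in controls. It was 685 times as high by counts in mutants (exact binomial 95% interval 189 to 5670; edgeR adjusted p = 2.81e-08). Control 2 held its only control counts, and without that library the controls were at 0. Against a floor of 3 counts over the remaining controls, the level in mutants was 300.1-fold higher. This value does not include counting error in the mutants.

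Tex19.2 had 343 and 333 counts in mutants and 2, 4 and 0 in controls, and its log2 fold change was 7.75 ± 0.41 (SE; edgeR adjusted p = 4.24e-08). Without control 2 it was 8.65. Tex19.1 averaged 27.8 ± 0.757 CPM in mutants and 0.0395 ± 0.0683 CPM in controls, and Tex19.2 averaged 28.0 ± 3.29 CPM in mutants and 0.116 ± 0.118 CPM in controls. Their GENCODE transcripts, of 1745 and 2046 bases, were 76.9% identical over 1202 aligned columns, and the longest run of identical bases was 72. None of the 1870 windows of 100 bases in Tex19.1 transcripts (the length of the reads) occurred in a transcript of another gene, Tex19.2 included, and none of the 1947 windows of Tex19.2 did. The same was true of the other 7 genes. Exact matches only were searched, in transcripts of GRCm38, and the authors' handling of reads that align with mismatches is not stated in the labels or tables.

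Per transcript length, the genes formed levels that differed between the groups. The deposited FPKM are a measure per transcript length and sequencing depth, but they did not track the counts exactly. Ddx4 had 8 counts in both control 1 and control 2, but 0.0838 and 0.2608 FPKM. Tex19.1 had 308 and 367 counts in mutants 4 and 6, but 15.9 and 13.3 FPKM. The reason is not known from the tables. In FPKM, mutants had Asz1 at 14.7 ± 2.21, Tex19.1 at 14.6 ± 1.85 and Tex19.2 at 14.5 ± 2.92, which do not differ beyond their spread. These levels were above those of 82.5%, 82.5% and 82.4% of all genes of the table. Dazl followed at 1.81 ± 0.264 FPKM, with both of its values above those of Mov10l1 at 1.28 ± 0.133 FPKM. Mov10l1, Piwil2 (1.24 ± 0.14 FPKM) and Tdrd1 (1.10 ± 0.406 FPKM) overlapped in mutants, near the median of all genes (1.59 FPKM). Ddx4 (0.0355 ± 0.0136 FPKM) and Mael (listed at 0 and 0.0239 FPKM) came last. For Ddx4 the groups overlapped in CPM but not in FPKM. Its mutants were at 0.0452 and 0.0259 FPKM and controls 1, 2 and 3 at 0.0838, 0.2608 and 0.2055 FPKM.

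In controls the order began with Piwil2 at 2.34 ± 0.475 FPKM and Tdrd1 at 1.51 ± 0.503 FPKM, which overlapped and exceeded the FPKM of 54.4% and 50.1% of all genes. The other 7 genes were at or below 0.261 FPKM in every control, Ddx4 highest among them at 0.183 ± 0.0906 FPKM. Piwil2 transcripts thus outnumbered those of Asz1 per length in every control, and the reverse held in both mutants.

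**Figure D3:**
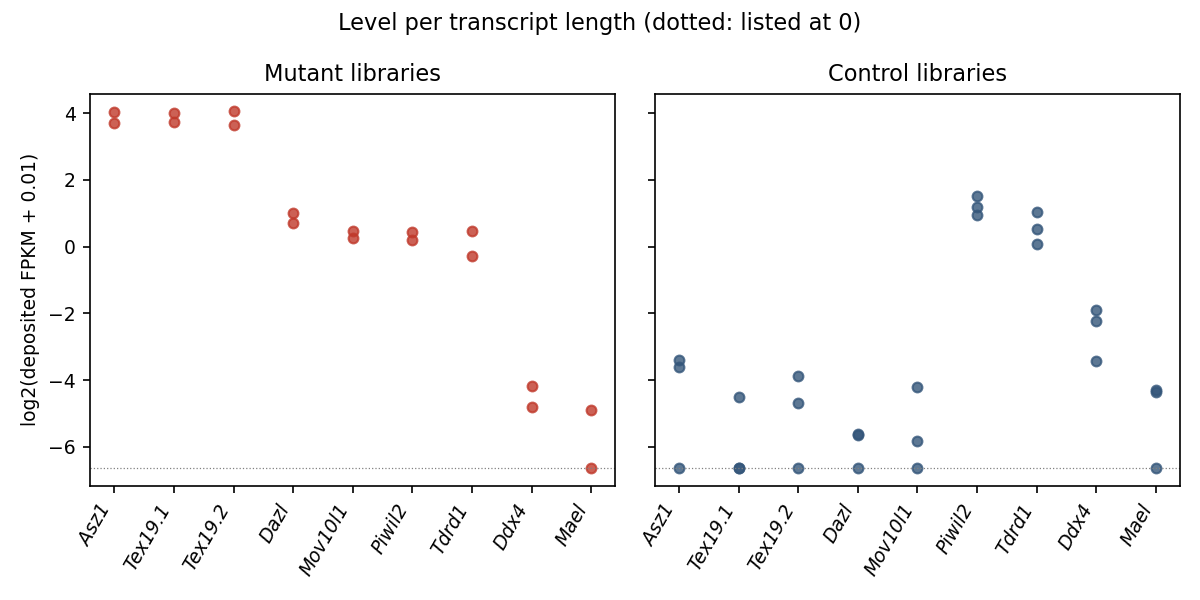
Points are single libraries, with log2(deposited FPKM + 0.01) on the vertical axis, mutant libraries in the left panel and control libraries in the right; genes stand in the order of their mean FPKM in mutants and the dotted line marks values listed at 0. Asz1, Tex19.1 and Tex19.2 lead in mutants at 14.5 to 14.7 FPKM, whereas Piwil2 and Tdrd1 lead in controls at 2.34 and 1.51 FPKM.

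The 5 risen genes were not equally alike across the libraries. Likeness was measured as the Euclidean distance between log2 CPM profiles (prior count 2), each centred on its own mean, over 5 libraries. Tex19.1 and Tex19.2 were closest, at 0.82, followed by Tex19.1 and Asz1 at 1.62. Dazl and Mov10l1 were 1.80 apart. Piwil2 and Tdrd1 lay at least 5.62 from each of the 5. Mutant 4 was higher than mutant 6 in Asz1 (1.54 times), Mov10l1 (1.42 times), Dazl (1.33 times) and Tex19.2 (1.18 times), and slightly lower in Tex19.1 (0.962 times).

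Outside the set, the genes with profiles nearest to Tex19.1 included Hamp2 (distance 0.67), a hepcidin gene, Rpl39l (0.67), Xist (0.70) and Cdh19 (1.42). Those nearest to Asz1 were Rnf183 (1.05), Cdh19 (1.16), Pet2 (1.24), Pnma5 (1.26) and Serpinb1c (1.27). All of these neighbours in profile had few counts in controls relative to mutants, which is what a small distance from these profiles requires. Xist separates the same libraries as the Y-linked genes do, but in the opposite direction. It was at 900 and 639 CPM in mutants and 2.96 to 4.26 CPM in controls.

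Some other genes of the piRNA pathway rose as well. Of 22 listed, 21 were found, 14 passed the filter, 4 rose and 0 fell in the edgeR test, where 6.11% of all genes tested rose and 4.17% fell; 1 was lower at an unadjusted p under 0.05, and 0 fell with DESeq2 or limma-voom. The median log2 fold change of the 14 was 0.95, against -0.01 over all genes tested. The 4 that rose passed the filter only with the counts of the mutants, so a call of higher and a higher median were favoured. With no filter on low counts 6 of the 21 were called higher and 0 lower, against 6.53% and 4.59% of all genes. In 10 of the 21 both mutants lay above all controls, as did 17.9% of all genes with a count. In 1, Pld6, both lay below all controls, with 0 and 7 counts in mutants and 30, 13 and 23 in controls. Its log2 fold change was -2.22 ± 0.87 (SE) and was not called (edgeR adjusted p = 0.127). Without mutant 4, 0 of the 21 were called higher by edgeR and 4 were higher at an unadjusted p under 0.05. On the deposited FPKM 0 were called (limma; 5 or 6 at an unadjusted p under 0.05).

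Morc1, an ATPase of transposon repression in male germ cells, had 60 and 27 counts in mutants and 7 in each control, with a log2 change of 3.08 ± 0.56 (SE; edgeR adjusted p = 0.00352). Fkbp6, a chaperone partner of the pathway, had 42 and 14 counts in mutants and 0, 3 and 3 in controls (4.18 ± 0.85; edgeR adjusted p = 0.00701). Henmt1, the enzyme that methylates the ends of piRNAs, is listed under the symbol 4921515J06Rik. It had 23 and 12 counts in mutants and 0, 2 and 1 in controls, 23.7 times as high by counts (exact binomial 95% interval 7.47 to 120; edgeR adjusted p = 0.00701). Tex15, a factor of piRNA-directed DNA methylation, had 26 and 35 counts in mutants and 9, 13 and 5 in controls (2.19 ± 0.55; edgeR adjusted p = 0.0208), and it also missed the test without control 1 or mutant 6. In each of the 4 both mutants were above every control, at no more than 5.31 CPM.

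Tudor genes beyond Tdrd1 did not pass the test. Tdrd7, which is also used outside the germline, was at 61.0 ± 9.38 CPM in mutants and 60.3 ± 4.51 CPM in controls, with a log2 change of 0.02 ± 0.15 (edgeR adjusted p = 0.959). Tdrkh, which links PIWI proteins to mitochondria, had 72 and 49 counts in mutants and 42, 45 and 9 in controls. Its edgeR adjusted p was 0.0896, and 0.00794 with no filter on low counts. Tdrd9, a helicase with a Tudor domain, had 58 and 63 counts in mutants and 62, 58 and 12 in controls (edgeR adjusted p = 0.228). Stk31, with 8 and 8 counts in mutants and 0, 1 and 0 in controls, entered the test with no filter and was called there (edgeR adjusted p = 0.0432). The enzyme Prmt5 and its partner Wdr77, which methylate PIWI arginines, and the Tudor protein Snd1 were well expressed in both groups and 0 of the 3 were called by edgeR, DESeq2 or limma-voom (0 at an unadjusted p under 0.05).

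**Figure D4:**
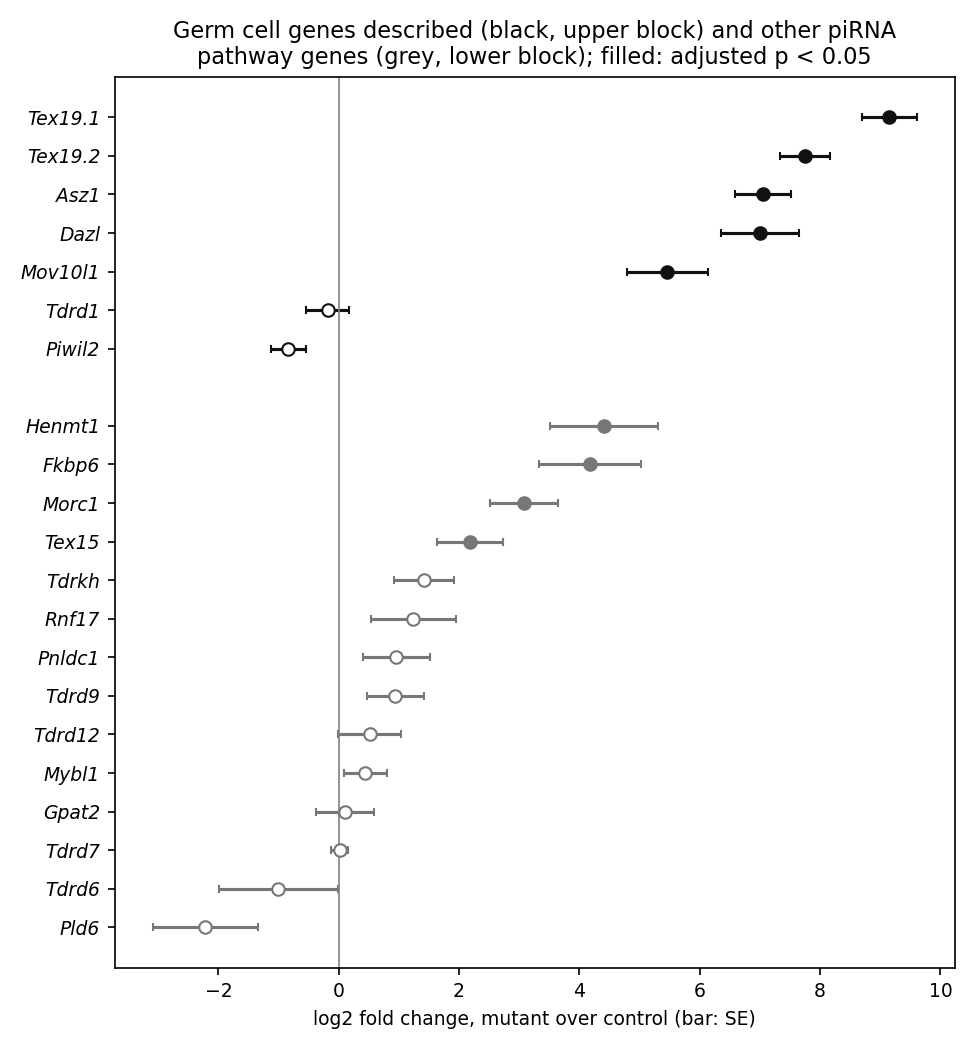
Log2 fold changes, mutant over control, on the horizontal axis with bars of 1 SE, for the 7 genes of the set that passed the filter (black, above) and the 14 other piRNA pathway genes that did (grey, below); filled points passed the test at an adjusted p under 0.05. The 5 rises of the set lie between 5.46 and 9.15, those of the other genes between 2.19 and 4.41, and Piwil2 and Tdrd1 lie at or left of 0.

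General markers of germ cells were mostly below the filter on low counts. Of 15 listed (Ddx4 and Dazl not among them), 4 passed it, 11 did not, and 3 of these had 0 counts in all libraries (Pou5f1, Sohlh1 and Figla). Both mutants exceeded every control in 5 of the 15 (17.9% of all genes with a count did) and lay below every control in 1, Kit. The list summed to 22.1 and 12.3 CPM in mutants and 13.2 to 15.9 CPM in controls. Of this, Kit alone was 8.23 and 4.71 CPM in mutants 4 and 6 and 11.1, 12.6 and 11.6 CPM in controls 1, 2 and 3. With Kit left out, a choice made after its values were seen, the rest summed higher in both mutants than in any control. Stra8 and Sohlh2, described below, held 1.33 and 6.81 CPM of this in mutant 4. In mutant 6 they held 2.62 and 1.77 CPM, against at most 0.110 CPM in a control. The sum thus rests largely on these genes and does not describe the list as a whole. Kit, a receptor also used by other cell types, was at 6.47 ± 2.49 CPM in mutants and 11.8 ± 0.78 CPM in controls (edgeR adjusted p = 0.0604). It was called lower with no filter on low counts (edgeR adjusted p = 0.0172), with DESeq2 (adjusted p = 0.0409) and without mutant 4 (edgeR adjusted p = 0.036). Nanog, Dppa3 and Lin28a had 0 counts in both mutants and at most 3 in a control. Prdm14, a regulator of early germ cells, had 5 and 6 counts in mutants and 0 in every control, and it was called higher with no filter (edgeR adjusted p = 0.044). Nanos2 had 8 and 3 counts in mutants and 2, 1 and 1 in controls, and Nanos3 had 6 and 9 counts in mutants and 6, 4 and 0 in controls. With the default filter 2 of the 4 tested rose, Stra8 and Sohlh2, and 0 fell, where 6.11% and 4.17% of all genes tested did. Both passed it only through the mutants and so had to differ once they passed. Stra8, the entry factor of meiosis, had 15 and 34 counts in mutants and 0 in every control (edgeR adjusted p = 0.00142). Against a floor of 3 counts over the control group it was 33.2-fold higher in mutants, and the exact binomial 95% interval began at 26.0-fold. Sohlh2, a transcription factor of spermatogonia and oocytes, had 77 and 23 counts in mutants and 2, 0 and 1 in controls, 67.7 times as high by counts (exact binomial 95% interval 22.5 to 334; edgeR adjusted p = 0.000597). Its log2 fold change was 5.95 ± 0.84 (SE), and 4.69 without mutant 4 and 6.69 without control 1.

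Of 10 defence genes that work outside the germline, all tested, 1 rose and 0 fell, near the shares of all genes tested (6.11% and 4.17%; edgeR). With DESeq2 or limma-voom 0 fell, and 1, Trim28, was lower at an unadjusted p under 0.05. The log2 fold change was below 0 in 8 of the 10, with a median of -0.22. The one that rose was Apobec3, a cytidine deaminase that restricts retroviruses, at 60.9 and 35.8 CPM in mutants and 15.1, 13.3 and 20.3 CPM in controls (1.57 ± 0.23; edgeR adjusted p = 0.000716). In these libraries the macrophage gene Csf1r was also higher, at 167 ± 10.4 CPM in mutants and 57.5 ± 14.7 CPM in controls, and it was the only 1 of 6 immune markers called (edgeR). The 6 summed to 252 and 229 CPM in mutants and 91.5 to 132 CPM in controls, and without Csf1r the other 5 summed to 77.8 and 68.7 CPM in mutants and 50.1 to 63.9 CPM in controls. Their part in the value of Apobec3 was not tested. Trim28, the corepressor of retroelement silencing, had 1632 and 2036 counts in mutants and 4234, 2944 and 2798 in controls (log2 fold change -0.42 ± 0.15; edgeR adjusted p = 0.0879). It was called lower with no filter (edgeR adjusted p = 0.0368) and without control 2 (edgeR adjusted p = 0.0343). The table has no rows for transposon families themselves. Of 9 single-copy genes derived from retroelements that were found, 6 were tested, and Syna, a syncytin derived from a retroviral envelope, fell to 2 and 2 counts in mutants, against 25, 43 and 25 in controls (-3.45 ± 0.73; edgeR adjusted p = 0.00865), a call lost without mutant 4 or mutant 6. Peg10 was at 7.48 ± 2.18 CPM in mutants and 3.72 ± 0.175 CPM in controls (edgeR adjusted p = 0.0547), with both mutants above all controls. It was called higher with no filter (edgeR adjusted p = 0.0258), with a CPM of at least 5 in 2 libraries (edgeR adjusted p = 0.0451), with upper-quartile normalization (edgeR adjusted p = 0.048) and with DESeq2 (adjusted p = 0.0413).

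Of the genes next to the 9 on the chromosome, 1 was called outside the Tex19 pair with the default filter. By the gene order of GRCm38.p6, Tex19.1 and Tex19.2 are neighbours on chromosome 11, with 0 genes of the table between them. The other flanks are 16 genes, of which 9 were tested and 1 rose, Gpa33 next to Mael (195 ± 6.09 CPM in mutants and 127 ± 5.14 CPM in controls; edgeR adjusted p = 0.006), a call lost without mutant 4 or mutant 6. That is near the 6.11% of all genes called higher. With no filter Slc39a14 beside Piwil2 was also called higher and Slc38a9 beside Ddx4 lower (edgeR adjusted p of 0.0371 and 0.0436). Slc39a14 was also called with DESeq2, with upper-quartile normalization and with a CPM of at least 5 in 2 libraries, and Slc38a9 without control 2. Cftr, the chloride channel gene beside Asz1, was at 181 ± 18.8 CPM in mutants and 219 ± 31.3 CPM in controls (edgeR adjusted p = 0.262). Wnt2, on the other side of Asz1, had 6 and 0 counts in mutants and 0, 2 and 2 in controls. Rftn1 and Plcl2, which flank Dazl, had edgeR adjusted p-values of 0.167 and 0.579, and Mlc1 and Panx2, which flank Mov10l1, had 0 to 10 counts in any library.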

How the data were processed

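The analysis used 5 libraries, 2 mutant and 3 control, grouped by their titles. Per the labels' protocols, RNA from laser-captured areas was amplified and read as single reads of 100 bases. The values deposited are raw read counts for 28644 RefSeq transcripts and, in a second table made by the authors, FPKM. Per the submitters' processing notes the build was mm9 and edgeR was used; no source used here names the aligner or the counting program. No column of sample values was left unmatched.

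Counts were fitted without covariates (3 residual degrees of freedom) by the quasi-likelihood method of edgeR 4.0.16 in R 4.3.3, after its default low-count filter (19353 rows kept) and TMM scaling. Benjamini-Hochberg adjustment ran over all rows kept. Fold changes are mutant over control, and the SE is the size of the log2 fold change over the root of the F statistic. Where a group held 1 to 3 counts, the ratio of counts is given with an exact binomial 95% interval. CPM values use TMM-scaled library sizes summed over all rows. Alternatives were RLE and upper-quartile normalization, no filter, a stricter filter, DESeq2 1.42.0, limma-voom (limma 3.58.1), 1 row per gene, FPKM with pseudocounts of 1 and 0.1, and each library left out in turn. The tests were checked on simulated data.

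All 9 genes are named. Of each other list, genes that passed the test, those with 0 counts throughout and up to 3 with the highest mean level were to be named; other list members named were chosen after their values were seen, as were the flanking genes. The 9 genes and all lists were chosen with earlier results of these data known. Spocd1 and Mela were listed but not matched. Some genes are not reported here. Of the cell type lists, 1 of 7 epithelial markers rose (Krt18) and 1 fell (Cdx2). Among 6 immune and 7 neural markers 1 each rose, and 1 of 5 red blood cell markers fell. Of the neural and red blood cell markers only 4 each were tested. Over all genes tested 6.11% rose and 4.17% fell. Of 6 endothelial markers 0 were called by edgeR, DESeq2 or limma-voom, and 2 were higher at an unadjusted p under 0.05. Gene order, promoters and current symbols come from RefSeq (GRCm38.p6), and transcripts from GENCODE M21, a later build than that of the counts.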

Additional observations from a re-analysis of the deposited data

How the results depend on the processing

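The 5 rises (Tex19.1, Tex19.2, Asz1, Dazl and Mov10l1) passed the test in all 15 alternatives each, with log2 fold changes of 3.94 to 11.63, 3.90 to 8.65, 3.89 to 7.59, 1.48 to 7.41 and 1.17 to 7.39; the lowest values are on the log2(FPKM + 1) scale, which understates the change of low genes. The number of the 9 called lower was 1 (Piwil2) with no filter on low counts, and 0 to 1 when single libraries were left out. For Piwil2 the log2 fold change ran from -1.05 to -0.57 and the adjusted p from 0.0226 to 0.362. For Tdrd1 the sign turned without control 2 (0.05) and without mutant 6 (0.31), its value ran from -0.92 (without mutant 4) to 0.31, and its adjusted p was 0.241 to 0.948. Of the other piRNA pathway genes, 4 rose with the default filter and 0 to 4 with a library left out. With no filter on low counts 6 were called higher. A CPM of at least 5 in 2 libraries left out the 4 that rose with the default filter. These could not be called there, and 0 were called higher. On FPKM 0, 0 and 0 were called higher (pseudocount 1, pseudocount 0.1, and no filter). At an unadjusted p under 0.05 these counts were 6, 5 and 5. Over the whole table, 1176 transcripts were higher and 809 lower. The counts on FPKM were 425, 428 and 126 higher and 163, 204 and 14 lower under the same settings, and with no filter on low counts 1243 were lower. Leaving out single libraries gave 521 to 1384 higher and 223 to 860 lower; where 1 mutant remained, it was assumed to vary like the controls. No paired analysis was possible because mutants (4 and 6) and controls (1, 2 and 3) share no replicate number. Depth limits Mael and Ddx4: a floor of 3 counts is 0.231 to 0.265 CPM in a mutant and 0.165 to 0.211 CPM in a control. The causes of these changes were not tested.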
